A study of Mus musculus with 16 samples.

Results

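The genes described here are 8 muscle genes whose proteins sit at the sarcomeric Z-disc and I-band, at the intercalated disc or on titin, where they are thought to register strain on the myocyte. They are the muscle ankyrin repeat proteins Ankrd1, Ankrd2 and Ankrd23, the Xin actin-binding repeat proteins Xirp1 and Xirp2, and the LIM domain proteins Csrp3, Fhl1 and Fhl2. They were taken by symbol from the table of normalized counts, in which they are 8 of 22372 protein-coding genes, and all 8 passed the filter on low values that left 13331 genes for testing. The rule names them by symbol and sets no threshold on a measured value, but they were picked with earlier results of these data known. The table held RNA-seq of ventricle pieces from male C57BL/6J mice, which were 10 to 12 weeks old when the experiment began, with 4 mice in each of 4 groups. Transverse aortic constriction (TAC) narrows the aortic arch and loads the left ventricle with pressure, and sham mice had the surgery without the constriction. THZ1, a covalent inhibitor of the transcriptional kinases Cdk7, Cdk12 and Cdk13, was given by intraperitoneal injection (10 mg/kg, 2 times daily) between postoperative days 1 and 60, and control mice received vehicle. This schedule is that of the sample labels, and the study's methods word it as daily injections at a higher dose per injection. The groups were TAC-Veh and TAC-THZ1 with their unloaded counterparts Sham-Veh and Sham-THZ1, and the comparisons ask how the load changed these genes and how the kinase inhibitor changed them in loaded and in unloaded hearts. Ankrd2 passed the filter on low values only through the TAC libraries, where it is higher.

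The muscle ankyrin repeat proteins bind the spring region of titin and also enter the nucleus, where Ankrd1 (CARP) acts as a transcriptional cofactor, and Ankrd1 is a classical gene of the stressed ventricle. Xirp1 (Xin) and Xirp2 (myomaxin) bind and bundle actin filaments and join them to the cadherin and catenin complexes of the intercalated disc. Csrp3 (muscle LIM protein) is a Z-disc protein whose loss causes dilated cardiomyopathy, while Fhl1 and Fhl2, built of LIM domains in tandem, bind titin and link it to kinases and transcription factors.

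The recovered reads came to 21.4 M to 35.8 M per library. The tissue label was borne out by its markers: the summed normalized count of 12 cardiomyocyte genes was 1.04 M to 2.05 M per library, that of 12 skeletal fibre genes was 487 to 1153, and that of 4 atrial genes was 25.1 to 82.3. Tnnc1 is listed at 0 in every library, where the annotation holds 2 overlapping genes of that symbol. The marker sums moved with the groups. The cardiomyocyte sum was 1.04 M to 1.48 M in TAC-Veh (1.91 M to 2.05 M in Sham-Veh) and 1.63 M to 2.02 M in TAC-THZ1 (1.98 M to 2.04 M in Sham-THZ1). The sum of 8 fibroblast genes was 71681 to 157473 in TAC-Veh (27975 to 31483 in Sham-Veh) and 29924 to 42822 in TAC-THZ1 (27285 to 29838 in Sham-THZ1). The markers within a list did not all move. Of the 11 tested cardiomyocyte markers, 5 were called lower with TAC by limma. Ttn (log2 fold change -0.04), Actc1 (-0.02) and Mybpc3 (0.03) were not called. In TAC-Veh, Postn held a mean of 38153 of the mean fibroblast sum of 104797, and Pdgfra and Tcf21 were not called with TAC. These are bulk tissues, in which fewer cells of a type, less RNA per cell and regulation of the marker genes themselves cannot be told apart. When libraries were instead centred on 11 cardiomyocyte markers, the median of all tested genes moved to 0.53 on the log2 scale for TAC-Veh vs Sham-Veh and to -0.43 for TAC-THZ1 vs TAC-Veh, and the members whose direction depends on this are named below.

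Upstream sequence was available from RefSeq (GRCm38.p6) for 7 of the 8 genes, in 11 windows of the 250 bases before a transcription start. Xirp1 had no entry. Each window was searched on both strands for the M-CAT box (CATTCC, or GGAATG on the other strand), the GATA box (AGATAA, or TTATCT), the MEF2 site and the CArG box of serum response factor. The windows below are shown because they belong to the member of each family that changed most among the well counted ones, and to Fhl2, which moved otherwise. Fhl1 and Fhl2 each had another window that is not printed, and the printed windows all hold a match. Capitals mark the matches, and none of the matches overlapped. The counts themselves were made on the older mm9 build.

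Ankrd1, chr19:36119845-36120094, minus strand, with M-CAT boxes 210 to 205 and 123 to 118 bases and a GATA box 47 to 42 bases before the start: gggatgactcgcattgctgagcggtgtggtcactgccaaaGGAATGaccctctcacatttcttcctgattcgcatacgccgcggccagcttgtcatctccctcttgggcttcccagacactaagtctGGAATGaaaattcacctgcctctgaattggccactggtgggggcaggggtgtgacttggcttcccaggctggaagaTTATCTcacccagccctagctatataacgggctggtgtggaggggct

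Xirp2, chr2:67445752-67446001, plus strand, with a MEF2 site 74 to 65 bases before the start: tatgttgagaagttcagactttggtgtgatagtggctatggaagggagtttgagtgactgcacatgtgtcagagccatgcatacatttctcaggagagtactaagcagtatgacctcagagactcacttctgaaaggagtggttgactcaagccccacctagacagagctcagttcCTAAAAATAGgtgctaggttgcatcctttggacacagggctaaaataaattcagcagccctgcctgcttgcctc

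Fhl1, chrX:56779433-56779682, plus strand, the upstream start, with a CArG box 102 to 93 bases before it: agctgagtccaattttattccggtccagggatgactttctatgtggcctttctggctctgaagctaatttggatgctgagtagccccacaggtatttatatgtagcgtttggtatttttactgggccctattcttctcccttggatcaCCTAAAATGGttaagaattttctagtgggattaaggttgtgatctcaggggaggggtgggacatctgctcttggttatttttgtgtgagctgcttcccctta

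Fhl2, chr1:43163962-43164211, minus strand, the downstream start, with a CArG box 31 to 22 bases before it: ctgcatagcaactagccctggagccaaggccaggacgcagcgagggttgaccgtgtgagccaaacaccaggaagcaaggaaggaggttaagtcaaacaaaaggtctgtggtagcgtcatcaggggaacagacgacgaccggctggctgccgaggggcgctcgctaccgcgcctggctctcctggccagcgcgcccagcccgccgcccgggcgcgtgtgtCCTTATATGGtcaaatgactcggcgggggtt

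Among all 32851 windows of this length, 12.6% held an M-CAT box, 9.99% a GATA box, 1.47% a CArG box and 0.508% a MEF2 site, and 1.02% held 2 or more M-CAT boxes as that of Ankrd1 does. The other Fhl2 window also held a CArG box (96 to 87 bases before the start) and a GATA box, the Ankrd23 windows held a GATA box and an M-CAT box, and the windows of Ankrd2 and Csrp3 and the other Fhl1 window held none of these. CArG boxes stood before the upstream Fhl1 start and before both Fhl2 starts. Which start these hearts used, and any link of a match to RNA level, was not tested. A match of letters is not evidence of binding.

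Most of the 8 genes rose with pressure overload and were lower again in the loaded hearts given THZ1. In TAC-Veh vs Sham-Veh, 7 of 8 members were called higher by limma at an adjusted p under 0.05, where 21.4% of all tested genes were called higher, and none was called lower (23.6% of all genes). In TAC-THZ1 vs TAC-Veh, 6 members were called lower (14.2% of all genes) and 1 higher (15.1%). All 4 TAC-Veh libraries were above all 4 Sham-Veh libraries for 7 members (18.2% of all genes), and all 4 TAC-THZ1 libraries were below all 4 TAC-Veh libraries for 6 members (10.5%). The median log2 fold change of the 8 was 1.84 with TAC and -0.89 with THZ1 in TAC, against -0.00 and 0.01 over all tested genes. Both comparisons use the same TAC-Veh libraries and are not independent of each other. The counts here include Ankrd2, which entered testing only through TAC libraries. Of the 8 genes, 5 rose by a log2 fold change of at least 1 with TAC (4.64% of all genes) and 4 fell by at least 0.89 with THZ1 in TAC (3.62%), the fold thresholds of the study. Together the 8 genes took 1.25% ± 0.21 (SD, n = 4) of recovered reads in TAC-Veh against 0.391% ± 0.040 in Sham-Veh, and 0.656% ± 0.099 in TAC-THZ1 against 0.359% ± 0.012 in Sham-THZ1.

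**Figure D1:**
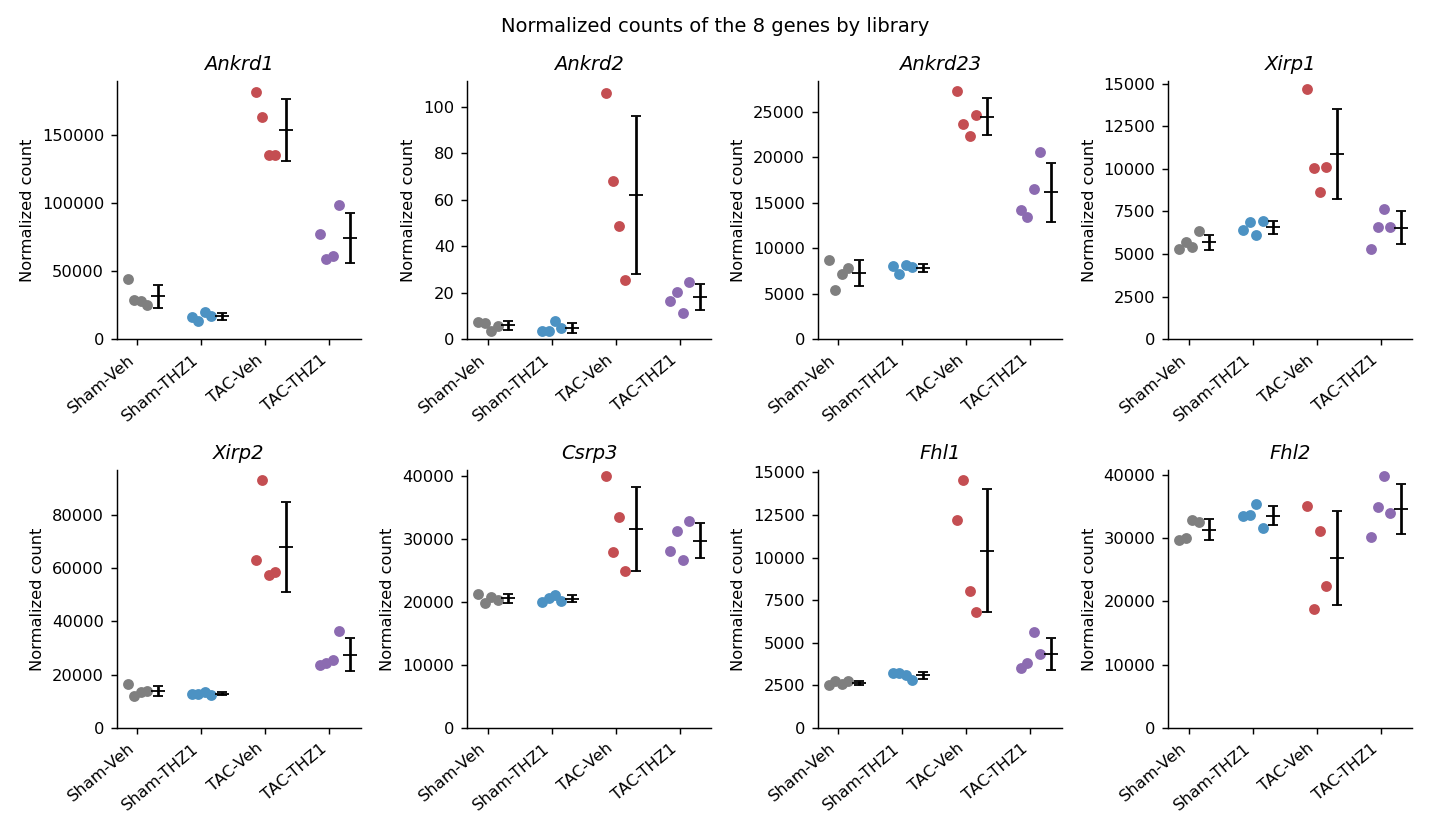
Normalized counts (linear axis from 0) of the 8 genes in each of the 16 libraries by group, with the mean and SD (n = 4) as a bar beside the points. The 4 TAC-Veh libraries lie above all sham libraries for every gene except Fhl2, and above all TAC-THZ1 libraries for every gene except Csrp3 and Fhl2.

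Levels were compared between genes per kilobase of exon, on the scale of normalized counts divided by the summed exon length of the gene. In Sham-Veh the order ran from Csrp3 (22028 ± 698, SD, n = 4), Fhl2 (20028 ± 1070) and Ankrd1 (17918 ± 4779) to Ankrd23 (3701 ± 724), Xirp2 (1173 ± 157), Xirp1 (974 ± 79), Fhl1 (712 ± 33) and Ankrd2 (5.44 ± 1.63). The values of Ankrd1 overlapped those of Csrp3 and Fhl2, and Xirp2 overlapped Xirp1. In TAC-Veh, Ankrd1 headed the order at 87003 ± 12838 per kilobase, ahead of Csrp3 (33841 ± 7098) and Fhl2 (17173 ± 4788), with no overlap between these 3 genes. Fhl1 (2796 ± 966) stood above Xirp1 (1859 ± 451) there, the reverse of their order in Sham-Veh, although their values overlapped. Ankrd2 was the lowest of the 8 in every group.

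Ankrd1 (ENSMUSG00000024803, chr19:36186455-36194334 of NCBIM37, minus strand) was the most abundant of the ankyrin genes. Its normalized counts were 44101.5, 28613, 28285 and 25500.4 in Sham-Veh and 181007, 163311, 135103 and 134822 in TAC-Veh. They were 77414, 59189, 61209.9 and 98587 in TAC-THZ1 and 16749.7, 13417, 19931 and 17408 in Sham-THZ1. Every TAC-Veh library was above every other library, and the 4 groups did not overlap one another at all, in the order Sham-THZ1, Sham-Veh, TAC-THZ1, TAC-Veh. The rise with TAC was 4.93-fold (log2 fold change 2.30, SE 0.19, limma adjusted p = 2.82e-07), and THZ1 lowered the level in TAC hearts to 0.476 times that of TAC-Veh (-1.07, SE 0.19, limma adjusted p = 7.06e-04). In TAC-THZ1 it was still 4.34-fold above Sham-THZ1 (log2 fold change 2.12, limma adjusted p = 1.92e-05).

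Ankrd23 (DARP; ENSMUSG00000067653, chr1:36587379-36592584, minus strand), the family member known from metabolic as well as mechanical stress, was the next in level. Its normalized counts were 8735, 5368, 7164 and 7811 in Sham-Veh and 27266, 23608, 22368 and 24621 in TAC-Veh. They were 14164, 13420.4, 16514 and 20616 in TAC-THZ1 and 8015, 7172, 8209.99 and 7969.94 in Sham-THZ1. The 2 sham groups overlapped, all TAC-THZ1 libraries lay above them, and all TAC-Veh libraries lay above those. Ankrd23 rose 3.41-fold with TAC (1.77, SE 0.14, limma adjusted p = 2.06e-07) and fell by 0.61 (SE 0.14, limma adjusted p = 0.00395) with THZ1 in TAC, a call that was lost when libraries were weighted by their quality (log2 fold change -0.52, adjusted p = 0.0948).

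Ankrd2 (Arpp; ENSMUSG00000025172, chr19:42110528-42119600, plus strand), best known from slow skeletal muscle, was present at a very low level. Its normalized counts were 7.43, 7.22, 3.54 and 5.74 in Sham-Veh, 105.8, 67.9, 48.5 and 25.6 in TAC-Veh, 16.4, 20.4, 11.4 and 24.7 in TAC-THZ1 and 3.58, 3.46, 8.01 and 5.07 in Sham-THZ1, the lowest of them resting on 3 reads. TAC-Veh lay above the other groups in all 4 libraries, the lowest of them only just above the highest TAC-THZ1 library. The log2 fold change was 3.04 with TAC (SE 0.39, limma adjusted p = 1.45e-05) and -1.59 with THZ1 in TAC (SE 0.39, limma adjusted p = 0.00609), and the latter call was lost with library weights (-1.28, adjusted p = 0.0766). The summed level of the 12 skeletal fibre markers was 487 to 728 in Sham-Veh and 665 to 1101 in TAC-Veh, and the TAC-Veh library with the highest Ankrd2 count had the lowest of these sums in its group. Most of the sum was Mybpc2, at a mean of 493 in Sham-Veh and 871 in TAC-Veh. Of the 6 fibre markers tested, Mybpc2 (0.81) and Tnnt3 (1.18) were called higher with TAC and Tnni2 (-1.19) and Atp2a1 (-1.66) lower by limma. The part of skeletal fibres in the Ankrd2 values was not tested.

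Within the ankyrin family the 3 genes kept different proportions. Per kilobase, Ankrd1 made up 87.3% ± 1.1 (SD, n = 4) of the summed level of the 3 genes in TAC-Veh and 82.6% ± 3.3 in Sham-Veh, and 83.4% ± 2.3 in TAC-THZ1 and 70.3% ± 2.2 in Sham-THZ1, with nearly all of the rest from Ankrd23. The log2 ratio of Ankrd1 to Ankrd23 normalized counts was 2.34, 2.41, 1.98 and 1.71 in the Sham-Veh libraries and 1.06, 0.90, 1.28 and 1.13 in the Sham-THZ1 libraries. It was 2.73, 2.79, 2.59 and 2.45 in TAC-Veh and 2.45, 2.14, 1.89 and 2.26 in TAC-THZ1. These ratios, which do not depend on how libraries are scaled, separated the groups without overlap in all 4 comparisons, by 0.53 with TAC, by -0.46 when THZ1 was given to TAC mice, by -1.02 when it was given to sham mice and by 1.09 for TAC under THZ1. Each reached p = 0.0286 in an exact two-sided permutation test, the smallest that 4 against 4 libraries allow, and 0.0571 after adjustment over the 24 ratio tests run, so none passed.

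Xirp2 (ENSMUSG00000027022, chr2:67284059-67364671, plus strand), the larger of the Xin genes with 11979 bases of exon, rose more than any other LIM or Xin member. Its normalized counts were 16669, 12211, 13562 and 13778.5 in Sham-Veh and 62941, 92832, 57256 and 58671 in TAC-Veh. They were 23787, 24337, 25386 and 36582 in TAC-THZ1 and 12811, 12798, 13706 and 12528 in Sham-THZ1. The sham groups overlapped, and TAC-THZ1 stood between them and TAC-Veh without overlap on either side. Xirp2 was 4.77-fold higher with TAC (log2 fold change 2.25, SE 0.15, limma adjusted p = 6.45e-08) and 0.407 times as high with THZ1 in TAC (-1.30, SE 0.15, limma adjusted p = 5.48e-05). It was the member with the smallest adjusted p in both comparisons. The annotated gene Gm13601 lies on the opposite strand within Xirp2, and the counting was strand-specific.

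Xirp1 (ENSMUSG00000079243, chr9:119922873-119932716, minus strand) changed less. Xirp1 was counted at 5305, 5714, 5408 and 6326 in Sham-Veh, 14676, 10039.7, 8617 and 10097 in TAC-Veh, 5314, 6601, 7668 and 6616 in TAC-THZ1 and 6424, 6866, 6126 and 6923 in Sham-THZ1. TAC-Veh lay above the other 3 groups, which overlapped one another. Xirp1 rose 1.87-fold with TAC (0.91, SE 0.13, limma adjusted p = 5.17e-05) and fell by 0.71 with THZ1 in TAC (SE 0.13, limma adjusted p = 0.00115). Under THZ1 no difference between TAC and sham was detected (-0.02, 95% interval -0.30 to 0.26, limma adjusted p = 0.938), and the sign of that small value turned under quantile normalization and under centring on cardiomyocyte markers.

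Of the summed per-kilobase level of both Xin genes, Xirp2 made up 74.9% ± 5.9 (SD, n = 4) in TAC-Veh and 54.5% ± 4.4 in Sham-Veh, and 66.9% ± 4.9 in TAC-THZ1 and 49.0% ± 2.4 in Sham-THZ1. The log2 ratio of Xirp2 to Xirp1 normalized counts was 2.64 ± 0.46 in TAC-Veh against 1.30 ± 0.26 in Sham-Veh, and 2.06 ± 0.33 in TAC-THZ1 against 0.98 ± 0.14 in Sham-THZ1. It separated TAC from sham without overlap both with vehicle (difference 1.35) and with THZ1 (1.08), each at the smallest exact permutation p of 0.0286 (adjusted 0.0571), and overlapped between TAC-THZ1 and TAC-Veh (-0.59, exact permutation p = 0.0857, adjusted 0.108).

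**Figure D2:**
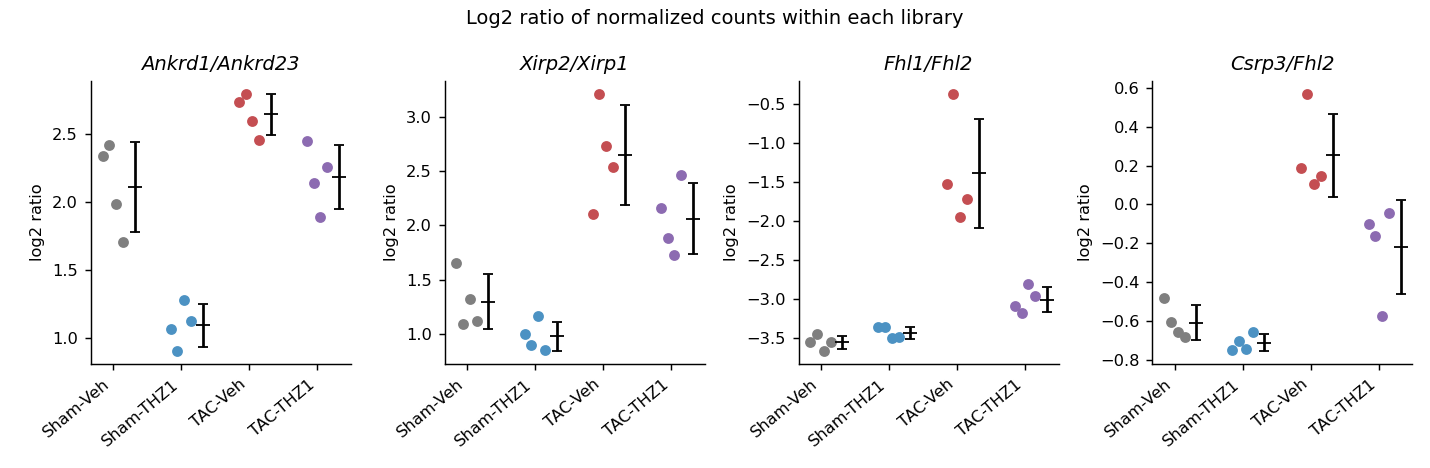
Log2 ratio of the normalized counts of related genes within each library (points) with group mean and SD (n = 4), on axes that do not start at 0. Ankrd1/Ankrd23 separates all 4 comparisons, Fhl1/Fhl2 rises from -3.56 in Sham-Veh to -1.39 in TAC-Veh, and Csrp3/Fhl2 rises from -0.61 to 0.25.

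Fhl1 (ENSMUSG00000023092, chrX:53984964-54046523, plus strand) was the LIM gene that moved most. Its normalized counts were 2518, 2734.5, 2576 and 2776 in Sham-Veh and 12192, 14556.5, 8033 and 6839 in TAC-Veh. They were 3544, 3819, 5661 and 4358 in TAC-THZ1 and 3247, 3259.92, 3113 and 2800.17 in Sham-THZ1. The 4 groups did not overlap, from Sham-Veh through Sham-THZ1 and TAC-THZ1 to TAC-Veh, and the TAC-Veh libraries spread widely. Fhl1 rose 3.75-fold with TAC (log2 fold change 1.91, SE 0.19, limma adjusted p = 1.26e-06) and was 0.430 times as high with THZ1 in TAC (-1.22, SE 0.19, limma adjusted p = 2.89e-04). Its level in TAC-THZ1 was 0.46 above Sham-THZ1 on the log2 scale (95% interval 0.07 to 0.86), which missed the threshold (limma adjusted p = 0.0774) but passed with DESeq2 (0.0412), with library weights (0.00891), with these groups fitted alone (0.0146) and when TAC-Veh replicate 2 or 4 was left out (0.0356 and 0.0359). A U6 RNA gene is annotated on the same strand within Fhl1.

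Csrp3 (ENSMUSG00000030470, chr7:56085768-56103400, minus strand) rose with TAC and did not fall detectably with THZ1. Normalized counts of Csrp3 were 21241, 19738, 20828 and 20313 in Sham-Veh, 39916, 27895, 33453 and 24894 in TAC-Veh, 28105, 31151, 26672 and 32826 in TAC-THZ1 and 19958, 20680.4, 21129 and 20063 in Sham-THZ1. All TAC libraries were above all sham libraries, while TAC-Veh and TAC-THZ1 overlapped. The rise was 1.51-fold with vehicle (0.60, SE 0.11, limma adjusted p = 4.93e-04) and 1.45-fold under THZ1 (0.53, SE 0.11, limma adjusted p = 0.00432). The change with THZ1 in TAC was -0.07 (95% interval -0.31 to 0.17, limma adjusted p = 0.686) and turned to 0.05 without TAC-Veh replicate 1. Relative to cardiomyocyte markers it was -0.51 (limma adjusted p = 7.77e-04), where the median of all genes stood at -0.43.

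Fhl2 (ENSMUSG00000008136, chr1:43179919-43220806, minus strand), which is linked to restraint of hypertrophic signalling, was the member that did not rise with TAC. Normalized counts of Fhl2 were 29705, 30019, 32884 and 32604 in Sham-Veh, 35004, 18801, 31063 and 22496 in TAC-Veh, 30119, 34821, 39733 and 33882 in TAC-THZ1 and 33542, 33607, 35360.2 and 31610.3 in Sham-THZ1. All 4 groups overlapped, with the low values in TAC-Veh replicates 2 and 4. The difference with TAC was -0.26 (95% interval -0.58 to 0.05, limma adjusted p = 0.157). It reached -0.41 (adjusted p = 0.0201) without TAC-Veh replicate 1 and -0.32 (adjusted p = 0.0481) with library weights, and turned to 0.27 (adjusted p = 0.0365) relative to cardiomyocyte markers, where the median gene stood at 0.53. With THZ1 in TAC, Fhl2 was 1.32-fold higher (0.40, SE 0.15, limma adjusted p = 0.0484), a call that was lost in 13 of 16 fits that left out 1 library (adjusted p up to 0.163, 0.25 on the log2 scale without TAC-Veh replicate 2), with the groups fitted alone (0.198), with no filter on low values (0.0707) and with edgeR (0.0664). That value turned to -0.04 relative to cardiomyocyte markers.

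The 3 LIM genes also shifted relative to one another, although no ratio test passed after adjustment. Per kilobase, Fhl2 made up 46.8% ± 1.5 (SD, n = 4) of the summed level of the 3 LIM genes in Sham-Veh and 31.7% ± 3.7 in TAC-Veh, Csrp3 51.5% ± 1.5 and 63.0% ± 1.5, and Fhl1 1.67% ± 0.10 and 5.33% ± 2.18. In TAC-THZ1 the shares were 40.2% ± 3.8 for Fhl2, 57.7% ± 4.2 for Csrp3 and 2.11% ± 0.42 for Fhl1. The log2 ratio of Fhl1 to Fhl2 differed by 2.17 with TAC and by -1.62 with THZ1 in TAC, and that of Csrp3 to Fhl2 by 0.86 and -0.47, without overlap and at the smallest exact permutation p of 0.0286 (adjusted 0.0571). In sham hearts neither ratio separated the THZ1 group from vehicle (0.13 and -0.10, exact permutation p = 0.0857 each, adjusted 0.108).

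Marker levels differed among the TAC-Veh hearts, as did the members. Replicate 2 held the lowest cardiomyocyte sum (1.04 M, against 1.41 M to 1.48 M in the other 3) and the highest fibroblast sum (157473, against 71681 to 111447), and it was the library with the highest Xirp2 and Fhl1 and the lowest Fhl2. Replicate 1, with the next highest fibroblast sum (111447), was highest for the other 6 members, Fhl2 among them. Its atrial marker sum was 82.3, against 39.2 to 42.9 in the other 3 libraries. That sum is nearly all Myl4, at a mean of 48.5 of 51.3 in TAC-Veh, and says little about atrial tissue. Over the groups, the 11 tested cardiomyocyte markers counted 5 lower and 0 higher with TAC and 7 higher and 0 lower with THZ1 in TAC, and the 8 fibroblast markers 6 higher and then 6 lower, none in the opposite direction. The part of tissue composition in the members' values was not tested beyond the scaling given above, under which 8 members passed upwards with TAC and 7 passed downwards when THZ1 was added. Under that scaling 75.1% of all genes were called in either direction with TAC and 65.5% with THZ1 in TAC, so these counts say little about the members.

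In sham hearts, THZ1 left most of the 8 genes near their vehicle level, and Ankrd1 was the exception in size. No member was called by limma (0.0225% of all genes were called higher and 0.0450% lower), with 1 member, Ankrd1, at an unadjusted p under 0.05, as were 6.88% of all genes. DESeq2 called Ankrd1 alone and edgeR called none, each also with 1 member at an unadjusted p under 0.05. The limma fit held 1 spread per gene for all groups. The SD as a percent of the mean was larger in TAC-Veh than in Sham-Veh for Fhl1 (34.6% and 4.66%) and most members. For Ankrd1 (14.8% and 26.7%) and Ankrd23 (8.51% and 19.6%) it was smaller. Sham intervals and p-values thus carry the spread of TAC hearts, and those of TAC comparisons that of sham hearts. With the sham groups fitted alone, 3.49% of all genes were called. All 4 Sham-THZ1 libraries were below all 4 Sham-Veh libraries for Ankrd1 (5.05% of all genes separated in this direction), a log2 fold change of -0.89 (95% interval -1.28 to -0.49, unadjusted p = 1.89e-04, limma adjusted p = 0.194). The adjusted p was 0.00153 with DESeq2, 0.00384 with library weights and 0.00663 with the sham groups fitted alone, and 0.0877 to 0.691 over the other alternatives, while the value stayed between -0.98 and -0.71. Sham-Veh replicate 1 was the high library of its group. Fhl1 was higher without overlap in Sham-THZ1 (0.23, limma adjusted p = 0.884, where 6.29% of all genes separated upwards), and it and Xirp1 (0.21, limma adjusted p = 0.810) passed only with the sham groups fitted alone (0.0289 and 0.0469). The 95% intervals of the other members were -0.16 to 0.42 for Ankrd23, -0.43 to 0.21 for Xirp2, -0.24 to 0.23 for Csrp3 and -0.21 to 0.41 for Fhl2, and that of Ankrd2 was wide, at -1.05 to 0.59.

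**Figure D3:**
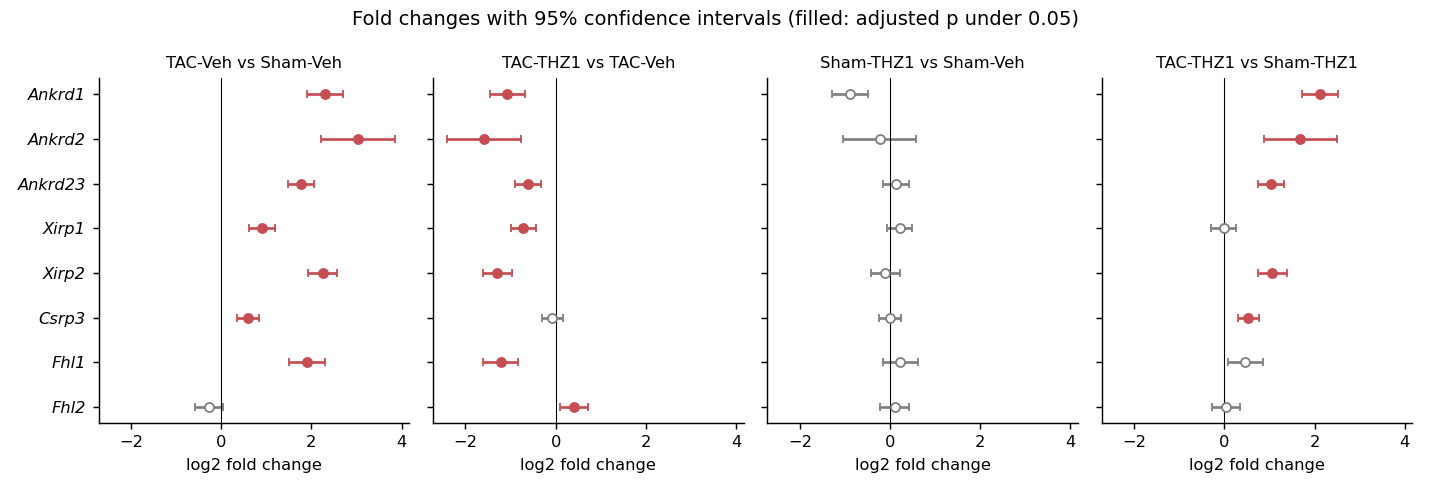
Log2 fold change (x axis) with 95% confidence interval from limma for the 8 genes (y axis) in 4 comparisons, with filled points at an adjusted p under 0.05 over all tested genes. TAC-Veh vs Sham-Veh has 7 filled points to the right of 0, TAC-THZ1 vs TAC-Veh 6 to the left and 1 to the right, Sham-THZ1 vs Sham-Veh none, and TAC-THZ1 vs Sham-THZ1 5 to the right. Intervals are not adjusted for multiple tests, so that of Ankrd1 in sham lies away from 0.

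Whether THZ1 acted differently in loaded and unloaded hearts was tested as an interaction, the log2 change with THZ1 in TAC minus that in sham. It was negative at an adjusted p under 0.05 for 4 of 8 members (5.62% of all genes) and positive for none (4.40%). These were Fhl1 (-1.44, SE 0.26, limma adjusted p = 0.00468), Xirp2 (-1.19, SE 0.22, limma adjusted p = 0.00468), Xirp1 (-0.93, SE 0.19, limma adjusted p = 0.00816) and Ankrd23 (-0.74, SE 0.20, limma adjusted p = 0.0266). Ankrd23 missed the threshold in 6 of 16 fits that left out 1 library (adjusted p up to 0.0596). For Ankrd1 the interaction was -0.18 (95% interval -0.74 to 0.37, limma adjusted p = 0.700), since its level was lower with THZ1 by 1.07 in TAC and by 0.89 in sham on the log2 scale. Ankrd2 gave -1.36 (limma adjusted p = 0.121), which passed without TAC-Veh replicate 4 (-1.71, adjusted p = 0.0333), Csrp3 -0.06 (0.838) and Fhl2 0.31 (0.369). Relative to cardiomyocyte markers, where 43.9% of all genes were called, the interaction was also called for Ankrd2 (-1.81, limma adjusted p = 0.0186) and Csrp3 (-0.52, limma adjusted p = 0.0149), which made 6 members.

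Comparing TAC with sham under THZ1, 5 members were still called higher (11.4% of all genes) and none was called lower (12.8%), and 6 members lay higher without overlap (15.7%). They were Ankrd1, Ankrd2 (1.68, limma adjusted p = 0.00643), Ankrd23 (1.03, limma adjusted p = 4.27e-04), Xirp2 (1.06, limma adjusted p = 5.61e-04) and Csrp3, and the median of the 8 was 0.78 against 0.00 over all genes. Xirp1, Fhl1 and Fhl2 (0.04, limma adjusted p = 0.866) were not called. Ankrd2 is counted here although it passed the filter only through TAC libraries.

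Each gene whose group means spanned over 1 on the log2 scale was matched to the other genes nearest to it, measured as the mean absolute difference over the 16 libraries of log2 values centred on Sham-Veh, among 10310 candidates. For Ankrd1 these were Nppb (0.33), which encodes the natriuretic peptide BNP, Fibin (0.34) and Ccrl1 (0.38), an atypical chemokine receptor. For Xirp2 they were Uck2 (0.14), a uridine-cytidine kinase, Bgn (0.17), the matrix proteoglycan biglycan, and Emp1 (0.19). For Fhl1 they were Ass1 (0.17), argininosuccinate synthase, Tmem119 (0.17) and Csrp2 (0.18), itself a LIM protein. Ankrd23 lay nearest to Hspa1l (0.19), Fam26e (0.21) and Igfbp6 (0.22), and the weakly counted Ankrd2 to Itgbl1 (0.34), Fibin (0.37) and Frzb (0.42), a secreted Wnt antagonist. The nearest genes thus included matrix and secreted proteins as well as a natriuretic peptide, and the likeness is a description of these 16 libraries.

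Genes related to the 8 by function did not move as a block. Of 23 titin, Z-disc and I-band partners, 7 were higher and 7 lower with TAC (21.4% and 23.6% of all genes). The members' rise was shared by the Z-disc protein Synpo2l (log2 fold change 1.89, limma adjusted p = 2.82e-07), while the actin-binding proteins Palld (-0.82) and Nebl (-0.79, nebulette) were lower. Myoz1 (calsarcin-2; 1.99, limma adjusted p = 0.00131) was higher too, but at a very low level. Its mean normalized count was 4.63 in Sham-Veh and 23.6 ± 15.4 (SD, n = 4) in TAC-Veh. With THZ1 in TAC, 2 of these partners were higher and 4 lower (15.1% and 14.2% of all genes). Synpo2l fell by 1.38 (limma adjusted p = 4.25e-05), Nebl rose by 0.23 (0.0374) and Palld gave -0.01. The weakly counted Myoz1 fell by 1.26 (limma adjusted p = 0.0345), with overlap between the 2 groups. Relative to cardiomyocyte markers these counts became 17 higher and 1 lower with TAC and 0 higher and 20 lower with THZ1, and Nebl turned to -0.22. Under that scaling 75.1% of all genes were called in either direction with TAC and 65.5% with THZ1 in TAC. The counts so scaled, here and for the lists below, therefore say little about a list.

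Among 25 other LIM domain proteins, 10 were higher and 6 lower with TAC (21.4% and 23.6% of all genes). With THZ1 in TAC, 2 were higher and 11 lower (15.1% and 14.2%). Csrp2 (1.88, limma adjusted p = 4.85e-05), a relative of Csrp3 known from smooth muscle and fibroblasts, and Pdlim2 (1.42, 4.97e-07) rose with TAC and fell by 1.25 (0.00322) and 0.88 (1.78e-04) with THZ1. Pdlim4 and Lmo7 were lower with TAC (-0.85 and -0.65), and with THZ1 Pdlim4 rose by 0.36 (0.00326) and Lmo7 gave 0.26 (0.0596). The lower calls with TAC shrank to 1, and Pdlim4 turned to -0.08 with THZ1, relative to cardiomyocyte markers.

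The list of 16 other muscle ankyrin repeat genes and their associates mostly went against the 3 ankyrin members. With TAC 3 were higher and 9 lower (21.4% and 23.6% of all genes), and with THZ1 in TAC 8 were higher and 1 lower (15.1% and 14.2%). The ubiquitin ligase adaptors Asb15 (-1.73, limma adjusted p = 1.06e-06) and Asb14 (-0.98, 6.49e-06) were lower with TAC, and with THZ1 they rose by 0.81 (0.00207) and 0.75 (2.96e-04). Ankrd10 (0.49) and the stretch-responsive small protein Smpx (0.42), which is not an ankyrin repeat protein, were higher with TAC, and with THZ1 Ankrd10 fell by 0.25 (limma adjusted p = 0.0183) and Smpx gave -0.04. Under centring on cardiomyocyte markers the TAC counts turned to 7 higher and 2 lower and the THZ1 counts to 4 higher and 6 lower.

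Of 16 adhesion and actin partners of the Xin proteins, 2 were higher and 6 lower with TAC (21.4% and 23.6% of all genes). With THZ1 in TAC, 1 was higher and 6 lower (15.1% and 14.2%). Nebl, which stands on this list too, was lower with TAC. The higher ones were Enah (Mena; 1.17, limma adjusted p = 7.82e-06) and Flnc (filamin C; 0.68, 4.18e-04), actin regulators that bind Xin, and both fell with THZ1, by 0.93 (2.50e-04) and 0.65 (0.00158). Gja1, the gap junction protein connexin 43, was lower with TAC (-0.58, limma adjusted p = 0.0358). Of 21 regulators of strain-responsive transcription, 2 were higher and 7 lower with TAC and 2 higher and 2 lower with THZ1 in TAC, beside the same shares of all genes. The YAP partner Wwtr1 (TAZ) rose by 0.40 (limma adjusted p = 3.40e-04) with TAC and fell by 0.55 (1.03e-04) with THZ1, whereas Gata6 was lower with TAC (-0.70) and rose by 0.51 (0.00200) with THZ1. Ifrd1 was higher (0.56) and Mef2d lower (-0.75) with TAC, and neither was called with THZ1 (-0.36 and 0.26). Relative to cardiomyocyte markers the TAC counts became 10 higher and 1 lower for the Xin partners and 17 higher and 0 lower for the regulators, and the THZ1 counts 0 higher with 13 and 17 lower.

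**Figure D4:**
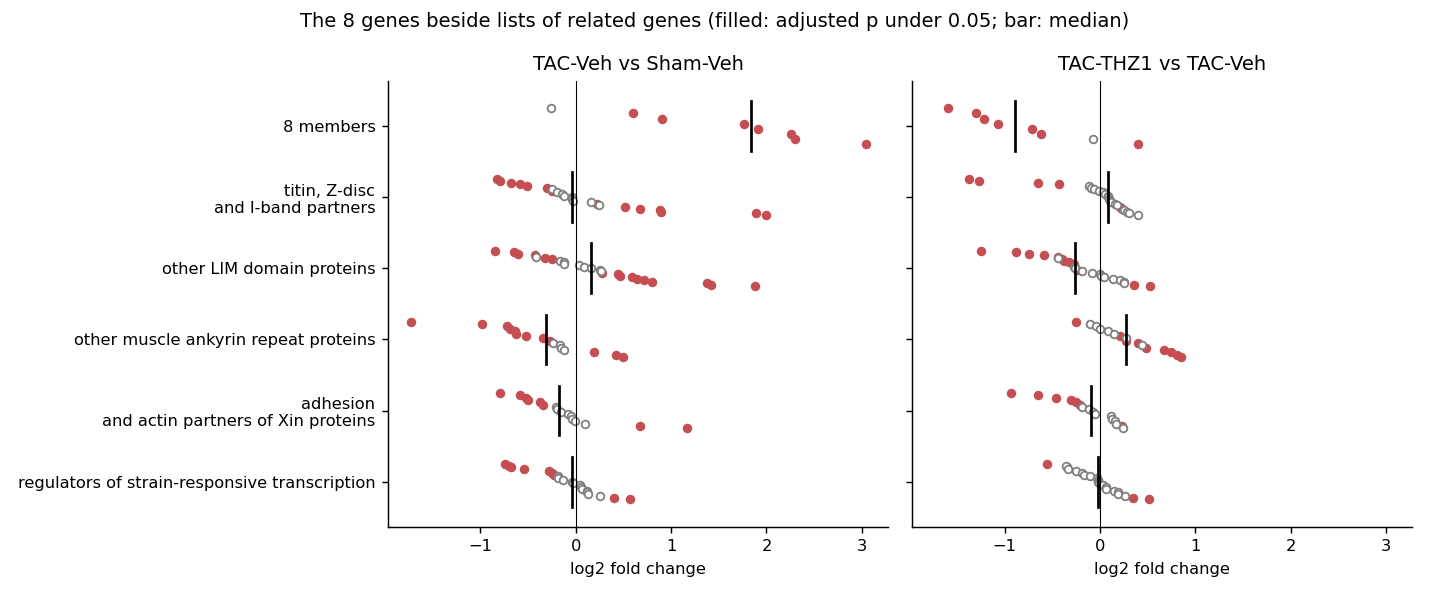
Log2 fold change (x axis) of the 8 genes and of 5 lists of related genes (y axis), for TAC-Veh vs Sham-Veh and TAC-THZ1 vs TAC-Veh, with filled points at a limma adjusted p under 0.05 and a bar at each median. The median of the 8 genes is 1.84 and -0.89, and those of the lists lie between -0.31 and 0.16 with TAC and between -0.26 and 0.27 with THZ1.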

How the data were processed

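RNA of ventricle pieces from 16 mice was analysed. The authors aligned the stranded reads to mm9 with TopHat2 2.1.1, counted reads per gene by strand with HTSeq and divided by DESeq2 size factors, and the deposited signal is this normalized count. Gene positions and exon lengths came from GENCODE on NCBIM37, to which all 22372 genes matched. Values were whole multiples of 1 read for 100% of entries (tolerance 0.001), which recovered the reads. Size factors were 0.749 to 1.40, intervals cover counting error and mouse to mouse spread together, and no table column was left unmapped.

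The main test was limma 3.58.1 (R 4.3.3) on log2(normalized count + 1) over all 16 libraries, 1 mean per group, eBayes with a trend, for genes with at least 10 normalized counts in at least 4 libraries, with p-values adjusted by Benjamini and Hochberg over all 13331. Fold changes on this scale understate those of low genes such as Ankrd2. Ratios within libraries were tested by exact two-sided permutation. The permutation test was tried on simulated data with a known change. On recovered reads DESeq2 1.42.0 called 3021 genes higher and 3117 lower with TAC, edgeR 4.0.16 called 3017 and 3050, and limma 2857 and 3146. Other alternatives were the pseudocount, the filter, scalings, groups fitted alone, library (array) weights, a replicate block, the fold thresholds of the study and leaving out each library. Python 3.11.15 with Matplotlib 3.10.9 drew the figures.

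Genes named are the 8 members, per related list the 2 most positive and 2 most negative called with TAC, and the 3 nearest genes of each member. The members and lists were chosen with earlier results of these data known, and support nothing independently. The labels give no batch. Replicates are separate mice.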

Additional observations from a re-analysis of the deposited data

Results flagged for a closer look

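A library stood apart from the other 3 of its group, by a gap to the nearest library that passed Dixon's critical value as a share of the group's range, in 3 of 56 groups of member values and ratios checked, where chance alone gives about 1 in 20. Ankrd1 in Sham-Veh replicate 1 was 44101.5 normalized counts, with a gap of 0.833 of the range. Xirp2 in TAC-Veh replicate 2 was 92832.1 (0.840), in the library with the lowest cardiomyocyte and the highest fibroblast marker sum of its group. Xirp2 in TAC-THZ1 replicate 4 was 36582.4 (0.875). Leaving out any 1 library kept the Xirp2 change between 2.09 and 2.34 with TAC and between -1.44 and -1.14 with THZ1 in TAC.

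The response to THZ1 differed between TAC and sham hearts for 4 members by the limma interaction test on the log2 scale. The differences were -0.74 for Ankrd23 (adjusted p = 0.0266), -0.93 for Xirp1 (0.00816), -1.19 for Xirp2 (0.00468) and -1.44 for Fhl1 (0.00468).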

How the results depend on the processing

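The direction of every member called with TAC or with THZ1 in TAC was kept in all alternatives that gave a value, except Fhl2. A mean of at least 50 normalized counts removed Ankrd2, and the interaction has no value with groups fitted alone. With THZ1 in sham the members called were 1 with DESeq2, 1 with library weights and 3 with the sham groups alone. With THZ1 in TAC they were 4 under the study's fold threshold. Of the ratio tests, 14 passed with pseudocount 5 (exact permutation, adjusted p = 0.0490 each), against 0 of 24. Ankrd1 to Ankrd2 then newly reached the smallest p for THZ1 in sham and for TAC under THZ1. A pseudocount of 5 is as large as the Ankrd2 counts there (3.46 to 8.01 in Sham-THZ1). This lowered the adjusted p of every test at the smallest p, while the Xirp2 to Xirp1 difference with TAC stayed at 1.35. Leaving out 1 library gave 7 to 8 members called with TAC, 6 to 7 with THZ1 in TAC, 0 to 0 with THZ1 in sham, 5 to 6 for TAC under THZ1 and 3 to 5 for the interaction.

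Signs turned as follows. Relative to cardiomyocyte markers, Fhl2 was 0.27 with TAC, -0.040 with THZ1 in TAC and -0.15 in the interaction, Csrp3 was 0.0059 with THZ1 in sham and Xirp1 was 0.061 for TAC under THZ1. Under quantile normalization Xirp1 was 0.022 and Fhl2 -0.044 for TAC under THZ1. With library weights Csrp3 was 0.028 with THZ1 in TAC and 0.030 in the interaction. Leaving out 1 library gave Csrp3 -0.024 to 0.012 and Ankrd23 -0.0085 to 0.23 with THZ1 in sham, Xirp1 -0.10 to 0.078 and Fhl2 -0.027 to 0.11 for TAC under THZ1, and Csrp3 -0.17 to 0.052 with THZ1 in TAC and -0.17 to 0.057 in the interaction. The cause was not tested. Library weights also ended the Ankrd23 interaction call (adjusted p = 0.0651).

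The percent of all genes called moved most with THZ1 in sham (0.0675 to 3.85 with library weights, 3.49 with the groups alone and 0.248 with DESeq2), with THZ1 in TAC (29.4 to 10.5 with the groups alone and 18.1 with library weights), for TAC under THZ1 (24.2 to 37.6 with library weights) and relative to cardiomyocyte markers (75.1 with TAC, 65.5 with THZ1 in TAC, 13.0 for TAC under THZ1, 43.9 for the interaction). For the interaction it was 10.0, 6.02 without a filter and 5.18 to 18.6 with 1 library left out (18.6 without TAC-Veh replicate 3), and leaving out 1 library gave 0.0225 to 0.113 with THZ1 in sham and 14.8 to 31.5 for TAC under THZ1.

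The deviations of same-numbered replicates from their group means correlated at -0.43 to 0.16, with 2 of 24 correlations over 0.1. Libraries of different numbers were not compared in this way, so the correlations cannot show whether the numbers pair mice. A fit with the replicate number as a block called 7 members with TAC, 7 with THZ1 in TAC, 0 in sham, 5 for TAC under THZ1 and 4 for the interaction, and the block changed no member's call.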
